A study of Mus musculus with 12 samples.

Results

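The transcripts described here carried the biotype protein_coding but no protein identifier (p_id), the attribute that the gene models use to mark a coding sequence. Of 87740 transcripts in the models, 71896 had this biotype, and 21862 of those (30.4%) lacked a p_id, which is 24.9% of all transcripts. They lay at 7721 of 35406 loci (21.8%), a locus being a set of transcripts that share a locus identifier. They were set against the 50689 transcripts with a p_id, called coding transcripts below, of which 50034 had the same biotype. Among the 22206 loci with a coding transcript, 7713 (34.7%) also held at least 1 transcript without p_id, and 21845 of the 21862 transcripts lay at such a locus.

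The models served an RNA-seq study of the mouse nucleus accumbens (NAc), a reward region in the ventral striatum. Polyadenylated RNA was sequenced from 12 pools of NAc of C57BL/6 mice (C57BL/6 J in the study's methods), labelled as 8 to 10 weeks old, with 3 to 5 animals in a pool and 3 pools in each of 4 groups. Repeated cocaine mice had 20 mg/kg on each of 7 days and repeated saline mice had saline for 7 days, whereas acute cocaine mice had 6 days of saline and 1 day of the same cocaine dose and acute saline mice had 7 days of saline. All were taken 24 h after the last injection, and a pool mixes all cell types of the dissected tissue. The models are a single set with no column for any pool, and which pools went into it was not examined. They hold no read count or expression value, so depth per pool, the level of any transcript in NAc and markers of the tissue could not be examined, and no difference between cocaine and saline is described. The values below are counts over a complete set of models, with no replicates and no tests.

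A gene that encodes a protein also gives rise to RNAs that are not translated into that protein. In a retained intron the splicing machinery leaves an intron in the RNA, which often brings a stop codon into the reading frame. Such RNAs may stay in the nucleus, or reach the cytoplasm and be broken down by nonsense-mediated decay, the pathway that removes RNAs whose stop codon lies upstream of an exon junction. Retained introns are common in neurons and in genes for splicing factors, where they can adjust the amount of protein made.

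To show what such an intron looks like, 7 introns of coding transcripts that lay whole within an exon of a transcript without p_id were read from the mm9 genome. Each is the shortest of 60 to 250 bases between coding bases in 1 of the gene lists described below, and is printed 5′ to 3′ from its first to its last base. Capitals mark the first stop codon met when the reading frame of the upstream coding exon is carried on into the intron.
Dvl1: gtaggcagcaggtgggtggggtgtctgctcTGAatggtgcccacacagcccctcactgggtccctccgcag
Srsf5: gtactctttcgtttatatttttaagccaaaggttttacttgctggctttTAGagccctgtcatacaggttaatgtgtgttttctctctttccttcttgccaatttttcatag
Hnrnpa3: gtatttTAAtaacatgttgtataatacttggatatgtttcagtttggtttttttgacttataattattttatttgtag
Rasgrp2: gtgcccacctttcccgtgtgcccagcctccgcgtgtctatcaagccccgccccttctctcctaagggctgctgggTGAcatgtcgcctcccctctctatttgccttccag
Grin1: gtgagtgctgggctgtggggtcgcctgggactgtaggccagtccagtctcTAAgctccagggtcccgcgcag
Hdac6: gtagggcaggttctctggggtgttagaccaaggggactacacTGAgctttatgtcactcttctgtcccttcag
Rpl34: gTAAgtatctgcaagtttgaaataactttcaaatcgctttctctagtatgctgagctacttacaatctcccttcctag
All 7 began with gt and ended with ag, the usual splice sites, and each held a stop codon in frame. The 71-base Dvl1 intron at chr4:155228769-155228839 on the plus strand lay within exons of 3 transcripts without p_id and had its stop at base 31. The 112-base Srsf5 intron lay at chr12:82050592-82050703 on the plus strand and the 78-base Hnrnpa3 intron at chr2:75499875-75499952 on the plus strand. The Hnrnpa3 intron had a GC content of 20.5% and its stop at base 7, whereas the Dvl1 intron had a GC content of 66.2%. The 110-base Rasgrp2 intron lay at chr19:6404828-6404937 on the plus strand, the 72-base Grin1 intron at chr2:25160733-25160804 on the minus strand and the 73-base Hdac6 intron at chrX:7516659-7516731 on the minus strand. In the 78-base Rpl34 intron at chr3:130432069-130432146 on the minus strand, the stop codon began at base 2, inside the donor site itself. The Grin1, Hnrnpa3 and Rpl34 introns were multiples of 3 in length, so that only the stop codon, and not the length, would end the frame.

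To characterize what kind of models these are, each was looked up in GENCODE M1, an annotation on the build of the models. GENCODE M1 is a different release from the Ensembl gene set that the study used as its reference. The types and coding sequences below are therefore those of GENCODE M1 and not of the models. GENCODE M1 contained 21834 of the 21862 transcripts without p_id, with identical exons for 21692 of them. The annotation typed 10747 (49.2%) as processed_transcript, its name for an RNA of a gene with no assigned reading frame, and 10462 (47.9%) as retained_intron. A further 498 (2.28%) were typed as nonsense_mediated_decay and 110 (0.503%) as protein_coding. Both common types carried no coding sequence in the annotation, all 110 of the protein_coding type did, and 61 of the 498 of the nonsense_mediated_decay type did. Of all 3452 transcripts of the nonsense_mediated_decay type in the models, 498 (14.4%) lacked a p_id and 2952 carried one. The biotype of the models was in effect a label of the gene, since only 5 of 35596 annotated genes carried more than 1 such label. The 35596 include genes with 1 transcript, which can carry only 1 label. Transcripts whose source is given as the Cufflinks package were left out of this count.

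These transcripts were short. Their median exon number was 4 (quartiles 2 and 5), against 7 (quartiles 4 and 13) in coding transcripts and 8 in coding transcripts at the same loci. Their median spliced length was 717 bases (quartiles 520 and 1406), against 1926 bases (quartiles 927 and 3311) in coding transcripts and 2048 bases in those at the same loci. Transcripts with 2 exons made up 26.4% of those without p_id and 3.02% of coding transcripts at the same loci, and those with 10 or more exons made up 8.42% and 43.6%. Single exons were rare, with 5 of 21862 against 3104 of all 50689 coding transcripts and 41 of those at the same loci. The exons themselves were of similar size, with a median of 130 bases in both groups. Within a locus, the median exon number of transcripts without p_id was lower than that of coding transcripts at 7057 of 7713 loci (91.5%), equal at 343 and higher at 313, with a median difference of -4.5 exons. The median spliced length was lower at 6579 loci (85.3%), with a median ratio of 0.417, yet 1768 transcripts without p_id (8.09%) were longer than every coding transcript of their locus.

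**Figure D1:**
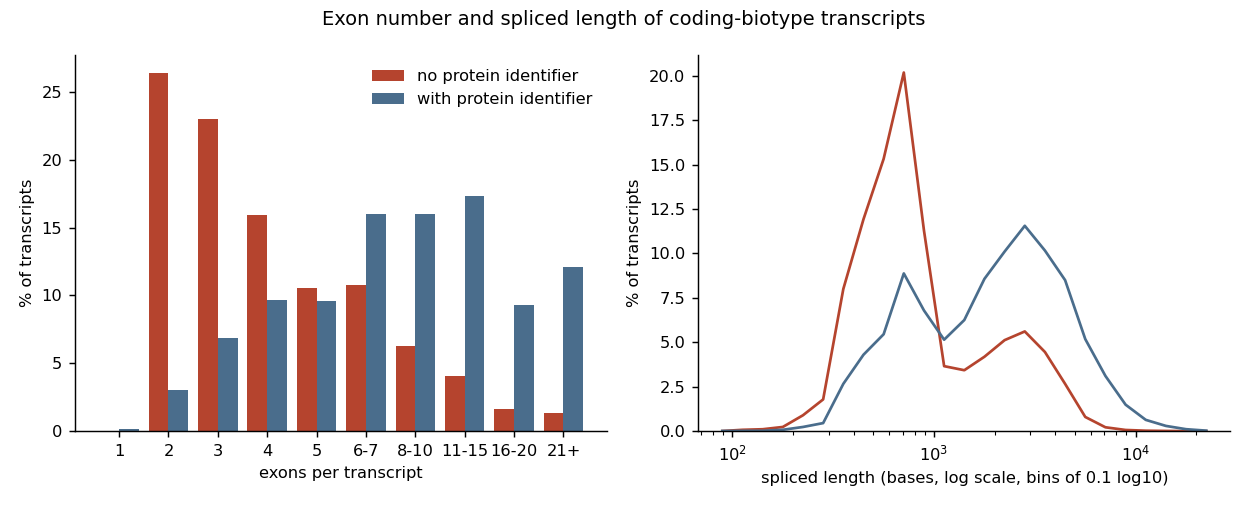
Exon number (left, % of transcripts in each class) and spliced length (right, % of transcripts in bins of a log scale) of 21862 transcripts without p_id (red) and 27041 coding transcripts at the same loci (blue). Transcripts without p_id were most frequent at 2 exons and had a median of 717 bases, whereas 1.30% of them and 12.1% of coding transcripts had 21 or more exons.

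The types differed in size. Transcripts of the processed_transcript type had a median of 4 exons and 627 bases, and 81.5% of them were under 1000 bases. Those of the retained_intron type had fewer exons, a median of 3, but were longer, with a median of 828.5 bases and an upper quartile of 2167 bases. The nonsense_mediated_decay type had a median of 8 exons and 1690.5 bases, close to coding transcripts. The transcript with the most exons was also the longest, ENSMUST00000134358 of Ryr3, a calcium release channel, with 102 exons and 14729 bases, against at most 104 exons in a coding transcript of the locus. ENSMUST00000128091 of Csmd2 had 68 exons, against at most 36 in a coding transcript, and 7537 of its 12964 bases lay in no coding exon. ENSMUST00000128249 of Cdh23, a cadherin of the hair cell tip link, had 67 exons and not 1 base outside coding exons. The third longest was ENSMUST00000141115 of Tnrc6c, a protein of microRNA silencing, with 11590 bases in 21 exons. The shortest had 2 exons each: 98 bases at Dgcr8, which acts in microRNA processing, 101 bases at Mitf, a transcription factor of melanocytes, and 106 bases at Mid1ip1.

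The outer ends of these transcripts seldom met those of coding transcripts. The start lay at the same base as a coding start in 1376 of 21845 (6.30%), inside a coding exon in 10735 (49.1%), inside a coding intron in 8426 (38.6%) and upstream of all coding models in 1293 (5.92%). For comparison, each of 25379 coding transcripts at these loci was set against the other coding transcripts of its locus, and 19.6% started at the same base, 43.0% in a coding exon, 17.2% in a coding intron and 20.2% outside. The end lay at the same base as a coding end in 1312 transcripts without p_id (6.01%), inside a coding exon in 11639 (53.3%), inside a coding intron in 8324 (38.1%) and downstream in 546 (2.50%). Coding transcripts ended at a shared base in 25.6%, in an exon in 47.3%, in an intron in 8.996% and outside in 18.1%. Ends inside a coding intron showed the widest gap between both groups among these 4 places, and they were more frequent in the retained_intron type, at 49.7%, than in the processed_transcript type, at 28.5%.

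**Figure D2:**
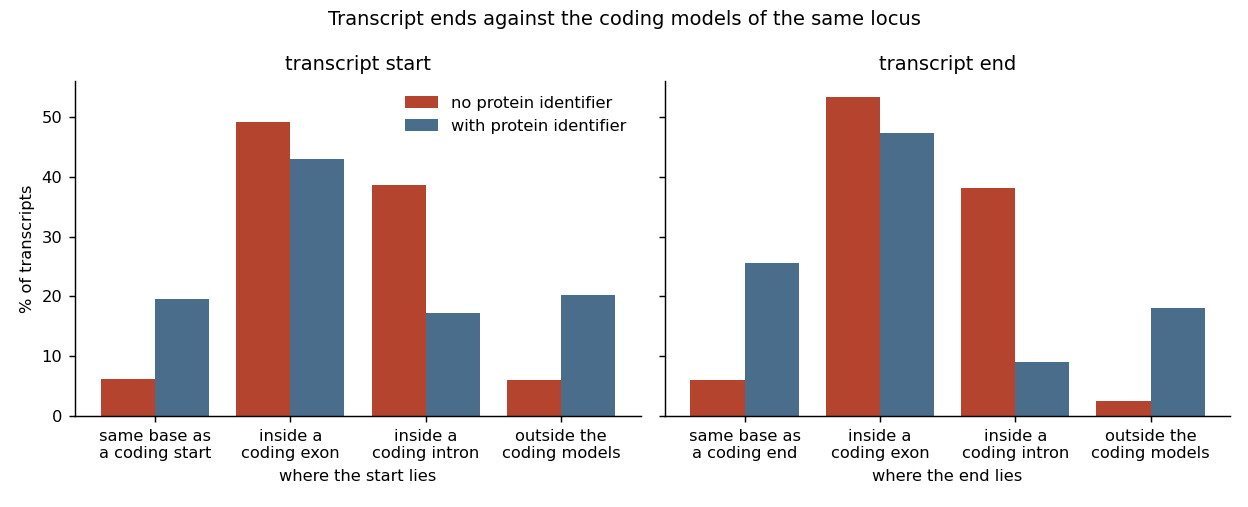
Place of the start (left) and end (right) of transcripts without p_id (red, 21845) and of coding transcripts set against the other coding transcripts of the locus (blue, 25379), in % of transcripts. Starts and ends inside a coding intron were more frequent without p_id, at 38.6% and 38.1%, than with it, at 17.2% and 8.996%.

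The splice sites of the terminal exons were, by contrast, mostly those of coding transcripts. Of 21840 transcripts without p_id and with more than 1 exon, 8653 (39.6%) had a first exon that ended at the donor site of a coding first exon, 9137 (41.8%) at the donor of another coding exon and 4050 (18.5%) at none. In coding transcripts these shares were 64.7%, 11.8% and 23.5%. The last exon began at the acceptor of a coding last exon in 7066 (32.4%), at that of another coding exon in 12373 (56.7%) and at none in 2401 (10.99%), against 69.0%, 18.6% and 12.4% in coding transcripts. The types stood apart here too. The first exon ended at no coding donor in 33.2% of the processed_transcript type and 3.52% of the retained_intron type, and the last exon began at no coding acceptor in 19.8% and 1.74%. The first exons had a median of 157 bases against 153 bases in coding transcripts, and the last exons 270 bases against 498 bases.

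Terminal exons often ran on into an intron. In 6902 transcripts without p_id (31.6%), the last exon crossed the donor site of a coding exon and ended inside the intron, a median of 307 bases past that donor. In 5585 (25.6%), the first exon began inside an intron and ran into a coding exon across its acceptor, from a median of 161 bases before it. Either was seen in 11525 (52.8%), and both in 962. Among coding transcripts 4.99% did so at the 3′ end, 4.22% at the 5′ end and 9.01% at either.

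A whole intron of a coding transcript lay within 1 exon in 4224 of 21845 transcripts without p_id (19.3%), with the exon reaching at least 1 base past both ends of the intron. Among the 25379 coding transcripts, 2008 (7.91%) covered an intron of another coding transcript. The share was 32.4% in the retained_intron type (3391 transcripts), 7.24% in the processed_transcript type (777) and 7.04% in the nonsense_mediated_decay type (35). Of the retained_intron type, another 6855 (65.6%) covered no whole intron but ran into one from a terminal exon, which left 211 (2.02%) with neither. Most models of this type showed part of an intron at 1 of their ends and not an intron spanned from exon to exon. Of the processed_transcript type, 7009 (65.3%) showed neither.

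A covering transcript held 1 coding intron in 2874 cases (68.0%), 2 in 819 (19.4%) and 3 or more in 531 (12.6%). In these and all other counts of covered introns, alternative forms of an intron were counted separately. The 4711 covering exons were internal in 1938 cases, last in 1531, first in 1239 and the sole exon in 3. Relative to their number, last exons covered an intron most often (7.01%), then first exons (5.67%) and internal exons (3.20%). The exon with the most introns belonged to ENSMUST00000129310 of Dcaf11, a substrate receptor of a ubiquitin ligase, which has 4 exons and 7271 bases and held 21 introns, alternative forms of an intron counted separately. An exon of ENSMUST00000150745 of Nop56, a core protein of small nucleolar ribonucleoproteins, held 13 introns, and an exon of ENSMUST00000130283 of Gyltl1b, a glycosyltransferase, held 10. Of the 5 transcripts with a single exon, that of Adrm1, a ubiquitin receptor of the proteasome, covered 8 introns and that of Ccdc17 covered 2, whereas those of Cyb5d2 and Dpm3 covered none.

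The covered introns were short. Of 115391 introns of coding transcripts at the 7713 loci, 5539 (4.80%) were covered, at 2568 loci. Their median length was 244 bases (quartiles 110 and 581.5), against 1474 bases for introns that were not covered and 919 bases (quartiles 286 and 2437) for those not covered at the same 2568 loci. At 2121 of the 2560 loci with both kinds (82.9%), the median length of covered introns was the lower. The share covered was 17.6% for introns of 50 to 99 bases, 13.4% for 100 to 199 bases, 10.1% for 200 to 499 bases, 4.62% for 500 to 999 bases, 2.73% for 1000 to 1999 bases and 0.852% for 2000 to 4999 bases. It was 0.0179%, 4 of 22296, for introns of 5000 bases or more. Below 50 bases 57 of 153 introns were covered, a length at which a gap in a model need not be a spliced intron. A covered intron lay within the exons of more than 1 transcript without p_id in 849 cases (15.3%) and of at most 7. An exon of a coding transcript covered 419 of the covered introns too (7.56%), against 1.09% of the others.

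**Figure D3:**
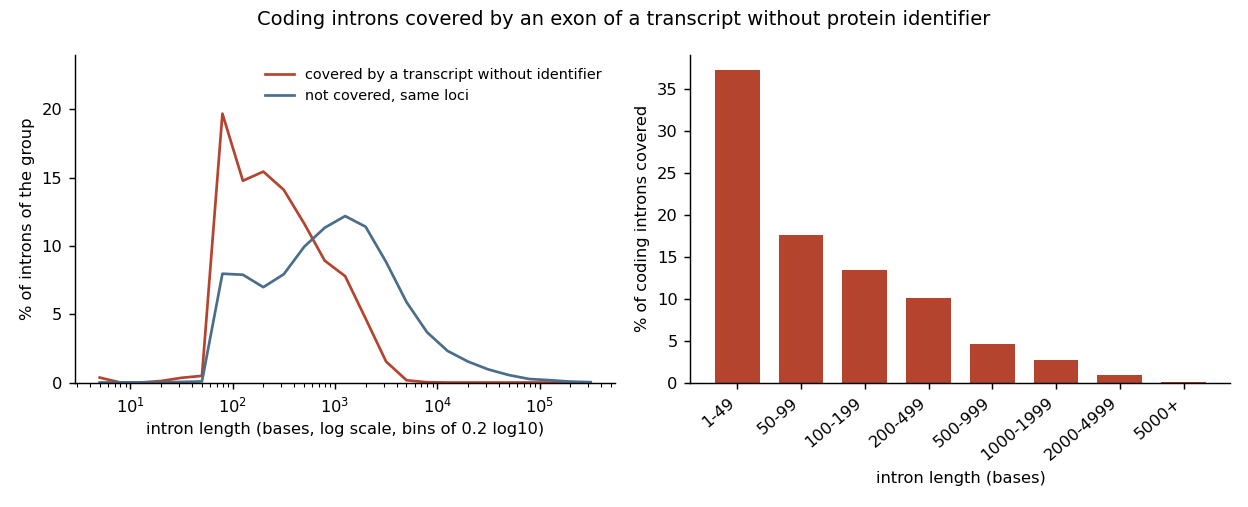
Length of covered introns (red) and of introns not covered at the same loci (blue), in % of each group (left, log scale), and % of all coding introns covered in each length class (right). Covered introns had a median of 244 bases, the others had a median of 919 bases, and the share covered was lower in each longer class, with 17.6% at 50 to 99 bases and 0.0179% at 5000 bases or more.

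Over introns of 50 bases or more, covered introns had a higher GC content, with a median of 51.9% (quartiles 45.4% and 57.6%) against 47.4% (quartiles 41.7% and 53.2%) for introns not covered at the same loci. Within classes of length at these loci the direction was mixed. The median of covered introns was the higher at 50 to 99 bases (57.5% against 55.9%), 100 to 199 bases (55.1% against 54.5%) and 500 to 999 bases (48.4% against 47.8%). It was the lower at 200 to 499 bases (51.8% against 52.01%), 1000 to 1999 bases (44.97% against 45.4%), 2000 to 4999 bases (42.9% against 43.98%) and, over 4 covered introns, 5000 bases or more (39.4% against 43.2%). The splice sites were GT-AG in 95.9% of covered introns and in 97.9% of the others at these loci. First introns made up 12.9% of covered introns and 15.3% of the others, and last introns 14.5% and 13.3%.

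Of the covered introns, 4991 lay between coding bases, and 4353 of these (87.2%) held a stop codon in the frame of the upstream exon, at a median of base 37. Among introns not covered at the same loci the share was 94.9%, with a median at base 39. At these loci the shares were 67.02% and 70.3% within the class of 50 to 99 bases, 81.9% and 81.8% within 100 to 199 bases, and 95.8% and 98.03% within 200 to 499 bases. In each longer class both shares were 99.4% or more. In 198 covered introns (3.97%) there was no stop in frame and the length was a multiple of 3, so that the reading frame would pass through, against 1.51% of the others. These shares were not split by length, and they include introns below 50 bases. In that class 11.8% of 34 covered introns and 22.2% of 18 others at the same loci held a stop. Lengths that are multiples of 3 made up 33.3% of covered introns and 32.9% of the others.

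Apart from introns within exons, 9623 transcripts without p_id (44.1%) had at least 1 intron that no coding transcript of the locus had. There were 11596 such introns among 58520 (19.8%), with a median of 1687 bases, against 1138.5 bases for those shared with coding transcripts. Only the acceptor was a coding one in 4789 (41.3%), only the donor in 3570 (30.8%), both in 1716 (14.8%) and neither in 1521 (13.1%). They were GT-AG in 94.6%, against 97.8% of coding introns. In 10696 of 21840 transcripts without p_id (48.97%), the introns were an unbroken run of those of 1 coding transcript. The share was 9.47% in coding transcripts. A transcript with few introns meets this measure more easily, and the groups were not matched for exon number. All but 67 of the 10696 still held bases outside coding exons. A median of 204 bases (quartiles 85 and 443), or 29.8% of the spliced length, lay in no coding exon of the locus, against 41 bases or 2.15% for coding transcripts set against the other coding transcripts. Set against coding transcripts only, 165 transcripts without p_id (0.755%) had neither a base nor an intron of their own, against 12.2% of coding transcripts. Set against every other transcript of the locus, 1611 of 21862 (7.37%) had neither, and the median was 154 bases of their own.

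The ends were also read for the polyadenylation signal, the hexamer that directs cleavage of the 3′ end, as the letters AATAAA or its common variant ATTAAA in the last 50 bases of the spliced transcript. It was found in 4617 of 21862 transcripts without p_id (21.1%), against 51.3% of coding transcripts at the same loci and 38.9% of all transcripts in the models. On the opposite strand of the same window the shares were 6.11%, 10.0% and 7.99%. Where the end was the same base as a coding end, the share was 77.4% without p_id and 72.5% in coding transcripts. It was 14.3% and 27.1% for ends inside a coding exon, and 19.3% and 47.7% for ends inside a coding intron. Of transcripts without p_id whose last exon ran past a coding donor, 15.98% had a signal, and of the 1397 whose last exon lay in an intron with an acceptor of its own, 35.1% did. A missing hexamer says only that these letters are not in this window.

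**Figure D4:**
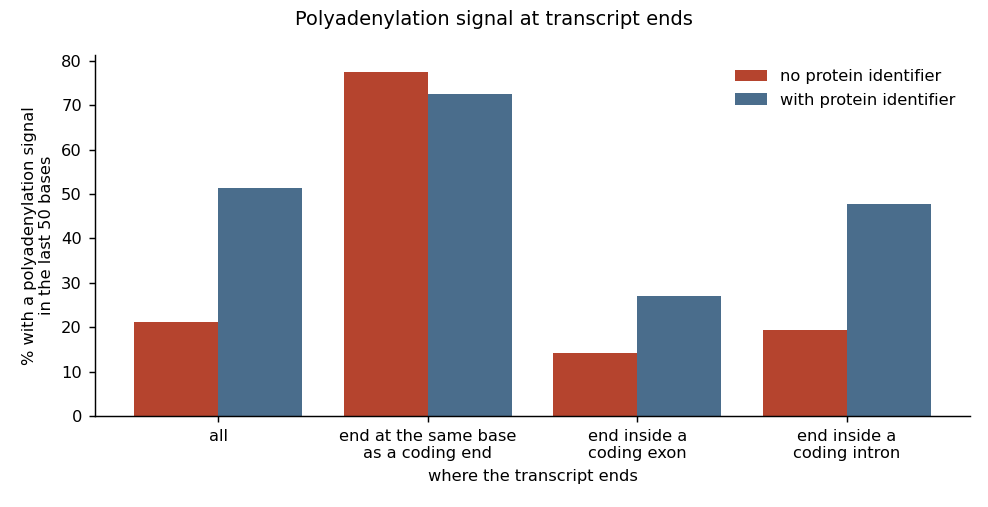
Share of transcripts with AATAAA or ATTAAA in their last 50 bases, by the place of their end, without p_id (red) and with it (blue; all at loci that also hold a transcript without p_id). The share was close in both groups at shared ends, 77.4% and 72.5%, and lower without p_id at ends inside coding exons, 14.3% and 27.1%, and inside coding introns, 19.3% and 47.7%.

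The transcripts without p_id also entered the groups by which the Cufflinks package tests splicing, within a group, and promoter use, between groups. Such a group is a set of transcripts with the same identifier of a transcriptional start site (TSS) in the models. Transcripts of a group need not start at the same base. Of 50449 TSS groups, 18145 (36.0%) held 1 or more, and 12897 of these held nothing else. A coding transcript shared the TSS group in 7999 of 21857 cases (36.6%). Of the 12948 groups with 2 or more transcripts, in which a shift between isoforms can be asked for, 3250 (25.1%) had a second transcript only through those without p_id. This is near their 24.9% share of all transcripts. Groups with 2 or more transcripts made up 25.7% of all groups, and 25.8% of the 37552 left when transcripts without p_id were set aside. Of the 10241 loci with 2 or more TSS groups, 2554 (24.9%) had them only in this way.

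At the loci that held any, the median was 2 transcripts without p_id. There was 1 at 2488 loci (32.2%), 2 to 4 at 3879 (50.2%), 5 to 9 at 1261 (16.3%) and 10 or more at 93 (1.20%), and at 2366 loci (30.7%) they outnumbered coding transcripts. The locus with the most, 21, spans Arhgap4, L1cam and Naa10, followed by 20 at Capn3 and Ganc and 19 at Tmem149 and U2af1l4. All 19 belong to U2af1l4, a relative of the splicing factor that recognises the acceptor site, and 12 of them covered a coding intron. Plagl1, an imprinted zinc finger gene, had 17, of which 1 covered an intron. Map4k2, a protein kinase, had 16, of which 7 covered an intron, and Tia1, an RNA-binding protein of stress granules, had 16, of which 4 did. The locus of Bre and Mrpl33 also had 16. Eif4a2, a helicase of translation initiation, had 15, of which 9 covered an intron. The 8 loci with transcripts without p_id and no coding transcript were those of Glb1l with 6, Rpl22 with 4, Gm347 with 2, and Dut, Zfp112, Mtap6 and a pair of Rb1 loci with 1 each.

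Their number differed between chromosomes. Transcripts without p_id made up 40.5% of those without p_id and coding ones together on chromosome 2, 38.4% on chromosome 4 and 37.6% on chromosome 11, but 18.2% on chromosome 13, 18.4% on chromosome 18 and 18.5% on chromosome 12. GENCODE credits 21832 of the 21834 found there to manual annotation, against 67.0% of coding transcripts. The manual share of coding transcripts was 86.1% on chromosome 2, 84.3% on chromosome 4 and 85.4% on chromosome 11, and 55.4%, 46.8% and 43.2% on chromosomes 13, 18 and 12. Over the 19 autosomes and the X chromosome the shares had a Pearson r of 0.891 and a Spearman rho of 0.890, a description over 20 chromosomes that share 1 annotation. On the X chromosome the manual share was 85.5% with 29.6% without p_id. The part of annotation effort in the number at any gene was not tested.

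Genes named for these mice by the study were looked up next. Dvl1, a scaffold of Wnt signalling, had 6 transcripts without p_id and 2 coding ones, and 5 of the 6 covered a coding intron. ENSMUST00000141539 had 11 exons and 3286 bases, of which 234 lay in no coding exon, shared its end with a coding transcript and covered 4 introns, 3 of them within 1 exon. ENSMUST00000156997 had 4774 bases and also covered 4 introns, each in a separate exon. In both, 1 of the 4 lay within the first exon, and the first exon of coding transcript ENSMUST00000030948 covered it too. In ENSMUST00000141539 the first exon reached past the start of that intron by only the required 1 base. ENSMUST00000140529, with 2 exons and 393 bases, covered none.

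**Figure D5:**
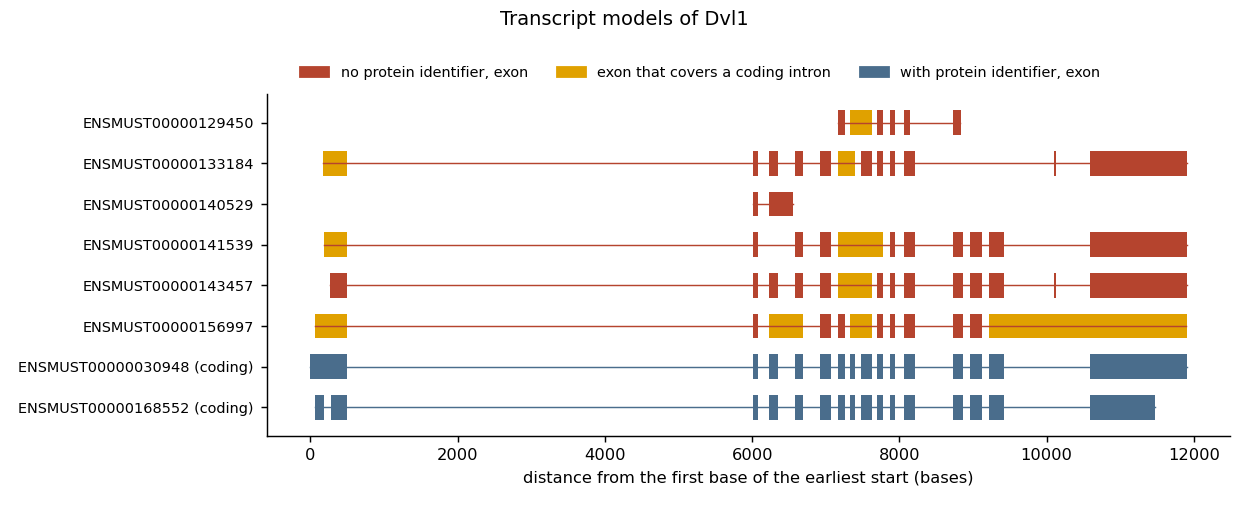
The 6 Dvl1 transcripts without p_id (red, above) and the 2 coding transcripts (blue, below), drawn to scale by distance from the earliest start in bases; boxes are exons, lines introns, and yellow boxes are exons that cover a whole coding intron. Only exons of transcripts without p_id were marked yellow. They lie at the first exon, over the short introns in the middle of the gene and, in ENSMUST00000156997, at the last exon. The intron within the yellow first exons also lies within the first exon of coding transcript ENSMUST00000030948, which is drawn blue.

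Ttc23, a tetratricopeptide repeat protein, had 10 transcripts without p_id, of 2 to 10 exons, and 3 coding ones, of 11 or 12 exons. ENSMUST00000126093 stood apart from the rest, with 10 exons and 1991 bases that all lay in coding exons, and with the end, the first donor and the last acceptor of coding transcripts. Of the other 9 at Ttc23, 7 ended inside a coding intron, and 1, ENSMUST00000133710, covered an intron. Zfp26, a zinc finger gene, had 3, all of the retained_intron type and all covering an intron. Rps6kb2, an S6 kinase, had 6, of which 1 covered 2 introns. Ece2, a metalloprotease, had 2 and Sp100, a protein of nuclear bodies, had 3, none of which covered an intron. Sept7, a septin of the cytoskeleton, and Rbfox1, a neuronal splicing factor, had none.

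In lists of genes that bear on this tissue or on RNA processing, the share of genes with a transcript without p_id can be read against 34.8% of all 22507 coding gene names, and the share of these transcripts that cover a coding intron against 19.3% overall. Of 12 SR protein genes, which encode activators of splicing, 10 (83.3%) had such a transcript, and 12 of their 33 (36.4%) covered an intron. Srsf5 had 7, of which 6 covered an intron, Srsf10 had 6, of which 1 did, and Srsf11 had 5, of which 2 did. Of 21 genes for heterogeneous nuclear ribonucleoproteins, which often oppose SR proteins, 9 (42.9%) had one, and 15 of 39 (38.5%) covered an intron. Hnrnph1 had 15, of 2 to 12 exons against 13 to 15 in its 3 coding transcripts, and 6 covered an intron although none was typed as retained_intron. Ptbp1, the polypyrimidine tract binding protein, had 6, of which 4 covered an intron, and Hnrnpr had 5, of which none did. In the family of Rbfox1, only Rbfox3, known as the neuronal marker NeuN, had any, with 2 of 301 and 369 bases.

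Of 80 ribosomal protein genes, 46 (57.5%) had a transcript without p_id, and 58 of 147 (39.5%) covered an intron, at 31 genes. Rpl13a had 9, Rpl11 had 8 and Rpl12 had 6, of which 3, 2 and 3 covered an intron. Of 24 genes for chromatin enzymes, 17 (70.8%) had one, and 25 of 70 (35.7%) covered an intron. Hdac5, a histone deacetylase, had 11, of which 5 covered an intron, Ehmt2, the histone H3 lysine methyltransferase G9a, had 7, of which 4 did, and its partner Ehmt1 had 6, of which 1 did.

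Of 17 markers of medium spiny neurons, the projection neurons of the NAc, 7 (41.2%) had a transcript without p_id, and 2 of 35 (5.71%) covered an intron. Arpp21, a phosphoprotein of these neurons, had 16, of which 1 covered an intron, Rasgrp2, an exchange factor for the GTPase Rap, had 8, of which 1 did, and Ppp1r1b, which encodes DARPP-32, had 4, of which none did. Of 22 glutamate receptor genes 11 had one, and 4 of 26 (15.4%) covered an intron. Grin1, the obligatory subunit of NMDA receptors, had 6 of 2 to 4 exons, against 19 to 21 exons in its 8 coding transcripts, and 3 covered an intron. Gria3, a subunit of AMPA receptors, had 4, of which 1 covered an intron, and Grin2b had 3, of which none did. Of 16 immediate early genes, which respond within minutes to neuronal activity, 3 (18.8%) had one, namely Nr4a2 with 3, Fos with 2 and Nr4a3 with 2, and none of these 7 covered an intron. A terminal exon ran into an intron in 11524 of 21844 transcripts without p_id at all coding genes. The counts were 15 of 33 for SR proteins, 14 of 39 for heterogeneous nuclear ribonucleoproteins and 94 of 147 for ribosomal proteins. For chromatin enzymes there were 36 of 70, and for medium spiny neuron markers 16 of 35. Glutamate receptors had 12 of 26 and immediate early genes 3 of 7. Intron lengths, with which covering differed, were not compared between lists. The lists are small and were not tested against other genes.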

How the data were processed

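Poly-A RNA-seq libraries of 12 NAc pools were aligned and quantified by the authors; their notes list Cufflinks, Cuffdiff, TopHat and CASAVA (versions not given in the sources used here) and the build mm9 (NCBIM37). The file the authors deposited holds exon coordinates of gene models, with other attributes and no counts or expression values. It has no column of a single sample.

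Transcripts were grouped by biotype, p_id and locus. An exon covered an intron when it reached at least 1 base past both ends. Types, manual or automatic source and reading frames came from GENCODE M1 on NCBIM37; no model ran past a chromosome end, and 18274 of 18290 coding sequences used read without an inner stop. Because all models were counted, no test was run. Named genes were those the study names, the 3 with most transcripts without p_id in each list, the 10 loci with most, the extremes of size and the single-exon models, the last chosen after their values were seen. The transcripts described and the gene lists were chosen with earlier results of these data known. Alternatives changed which transcripts, introns and genes were compared; those on manual annotation, and the share covering an intron among transcripts typed as not coding, were chosen after seeing the data. Of the 5 single-exon models, 1 is not described here. Python 3.11.15, numpy 2.4.6, scipy 1.17.1, pysam 0.24.0 and matplotlib 3.10.9 were used, and the routines were tested on simulated models.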

Additional observations from a re-analysis of the deposited data

How the results depend on the processing

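Typing by GENCODE in place of the p_id gave 21355 in place of 21862 transcripts. The share of transcripts that cover a coding intron was 19.3%. It was 18.04% when introns that a coding transcript also covers were left out and 60% (3 of 5) among transcripts with a single exon. Under the other settings it lay within its 95% Wilson interval (18.8% to 19.9%). Such an interval treats transcripts as independent, which those of a locus are not, and served only as a yardstick for the size of a change. The median exon number of coding transcripts, 7, was 8 at loci with a transcript without p_id, 8 for manually annotated ones there, and 6 for the longest coding transcript of each locus; their median spliced length, 1926 bases, was 2048, 1922 and 2315 bases in these settings and 1803 bases for all manually annotated ones. With any coding exon in place of the first or last, 81.5% of first exons ended at a coding donor in place of 39.6%, and 89.0% of last exons began at a coding acceptor in place of 32.4%. The median length of covered introns was 268 bases when taken per locus first, in place of 244, and that of introns not covered was 919 bases at loci with a covered intron, in place of 1474. Gene names in place of loci left the shares inside their intervals. No paired analysis was possible because the models hold no values per sample. The models describe an annotation, and none of the values shows that a transcript was present in NAc.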
